A study of Mus musculus with 96 samples.

Results

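The NR4A nuclear receptors were followed across liver, skeletal muscle and cerebral cortex of mice that ate freely or fasted daily. Their members, Nr4a1, Nr4a2 and Nr4a3, were taken by gene name from the table of read counts, and are 3 of the 56748 genes in it. NR4A proteins are orphan nuclear receptors that work as transcription factors without a known hormone that they need to bind. Their genes belong to the immediate early genes, which neural activity, exercise, cold and hormones that raise cAMP induce within a short time. Nr4a1 (Nur77) and Nr4a3 (Nor1) are known for regulating glucose and fat use in muscle and gluconeogenesis in liver, and Nr4a2 (Nurr1) for maintaining midbrain dopamine neurons and for marking neurons of the claustrum and deep cortex.

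The study placed male C57BL/6 mice from 6 weeks of age on ad libitum feeding (AL) or on intermittent fasting (IF, a daily fast of 16 h) for 4 months, and took tissue of the IF mice at the end of a fast. The fast ran from the afternoon to the next morning, so the IF mice could feed only while the lights were on. Tissue was taken in the morning. The labels list 8 mice per diet and sex for each tissue, the male mice being numbered 1 to 16 and the female mice 25 to 40. Libraries of different tissues with the same number in their names were taken as the same mouse. The labels do not state this, and the comparisons within mice rest on it. The strain, age, feeding hours and time on the diet stated above are those of the male mice. For the female mice the labels give sex and diet, and the rest is not given in the sources used here. The 95 libraries used held from 26097314 to 49838004 counted reads each.

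Library 1 of the male AL cortex group was left out. A gene's level is its count per 1000000 counted reads of the library (CPM). The library held 213 CPM of Xist, the RNA that marks the inactive X chromosome, and no count of the Y-linked genes Ddx3y, Uty, Kdm5d and Eif2s3y, so its sex genes went against its male label. The other 47 libraries labelled male held at most 0.612 CPM of Xist, and the 48 labelled female at least 36.8. That cortex library held 63.1 CPM of Nr4a1, 16.6 of Nr4a2 and 11.1 of Nr4a3, each below every other male AL cortex library. The results for male cortex are therefore given without it, and with it where that matters.

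Tissue labels were checked against marker genes. The summed level of 4 hepatocyte markers lay between 40700 and 97930 CPM in liver libraries, and reached 5.59 in muscle and 4270 in cortex, where Ttr, which the choroid plexus also makes, was the most abundant of them. The 5 markers of skeletal muscle fibres summed to between 103100 and 137000 CPM in muscle, and 4 neuron markers to between 4550 and 6535 CPM in cortex.

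Nr4a1 (ENSMUSG00000023034) lies on chromosome 15 from 101152150 to 101172676 on the plus strand of GRCm39, Nr4a2 (ENSMUSG00000026826) on chromosome 2 from 56996842 to 57014015 on the minus strand, and Nr4a3 (ENSMUSG00000028341) on chromosome 4 from 48045153 to 48086447 on the plus strand. The Nr4a1 span contains 1 other annotated gene on the same strand, ENSMUSG00000121015, whose counts over the 95 libraries came to 0.533% of those of Nr4a1. How the counting treated reads shared between those 2 genes is not given in the sources used here.

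Levels were compared first, in AL mice. Nr4a1 stood at 3.10 ± 1.66 CPM (SD, n = 8) in male AL liver, at 103 ± 7.54 (SD, n = 8) in muscle and at 212 ± 103 (SD, n = 7) in cortex. Female AL mice held 4.06 ± 2.03 CPM in liver, 222 ± 52.2 in muscle and 208 ± 72.7 in cortex (SD, n = 8 each). In CPM, liver was far below muscle and cortex in both sexes. In male mice each cortex library (114 CPM or more) lay above each muscle library (112 or less), and in female mice these 2 tissues overlapped. In a fit over the 3 tissues of the male AL mice, with the mouse as a block, Nr4a1 was higher in muscle than in liver by 5.34 and in cortex than in liver by 5.27 on the log2 scale (adjusted p = 1.02e-12 and 1.87e-12). Between cortex and muscle the result depended on how libraries were scaled. The TMM factors of the fit, which put tissues on a scale set by the genes they share, averaged 1.58 in male cortex and 0.760 in male muscle. With them cortex minus muscle was -0.07 in male (adjusted p = 0.815) and -1.0 in female AL mice (adjusted p = 0.00631). With library totals alone, an alternative added after the data were seen, it was 0.99 (adjusted p = 0.00174) and -0.11 (adjusted p = 0.745). The order of cortex and muscle for Nr4a1 is therefore not given. Differences in the next paragraphs are on the scale of the TMM factors.

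Nr4a2 had a different order. It was highest in cortex, at 58.5 ± 24.6 CPM (SD, n = 7) in male and 27.1 ± 9.52 (SD, n = 8) in female AL mice. Male AL liver held 1.03 ± 0.387 CPM and muscle 0.839 ± 0.225 (SD, n = 8 each), and these neighbours did not differ beyond their spread (log2 difference of -0.02, adjusted p = 0.933). Cortex exceeded liver by 5.04 and muscle by 5.06 on the log2 scale (adjusted p = 1.81e-15 and 3.17e-15). In female AL mice muscle exceeded liver by 1.08 (adjusted p = 0.00832).

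Nr4a3 followed the order cortex, muscle, liver in both sexes. Male AL cortex held 38.1 ± 9.81 CPM (SD, n = 7), muscle 2.38 ± 1.78 and liver 0.0498 ± 0.0825 (SD, n = 8 each), and 5 of the 8 liver libraries had no count. Cortex exceeded muscle by 3.22 on the log2 scale (adjusted p = 3.47e-08). The fit gave 5.74 for muscle minus liver. In liver alone Nr4a3 did not pass the expression filter, so this value is a description against a level near 0. Each male AL muscle library (0.856 CPM or more) lay above each male AL liver library (0.192 or less). In female AL mice cortex exceeded muscle by 1.68 (adjusted p = 0.00027), and the fit gave 5.71 for muscle minus liver, with the same limit. There each muscle library (1.97 CPM or more) lay above each liver library (0.223 or less). Library totals alone moved these log2 differences as well, without a change of direction or call. Cortex minus muscle was then 6.11 for Nr4a2 and 4.26 for Nr4a3 in male mice and 2.56 for Nr4a3 in female mice, and muscle minus liver was 5.50 and 5.45 for Nr4a3 in male and female mice and 0.82 for Nr4a2 in female mice. Such tissue differences were common among all genes. In male AL mice 79.2% of the genes tested differed between muscle and liver, 83.4% between cortex and liver and 80.2% between cortex and muscle, and in female AL mice 79.1%, 84% and 80.5%.

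Markers named as the most abundant of a list were ranked by CPM, without regard to gene length. Levels of the NR4A members were set side by side only per kilobase of the gene length in the authors' table. On that scale Nr4a1 was the most abundant member in each tissue of male AL mice, at 60.4 ± 29.5 CPM per kb in cortex (SD, n = 7), where Nr4a2 had 14.4 ± 6.06 and Nr4a3 6.36 ± 1.64. In male AL muscle Nr4a1 had 29.3 ± 2.15 CPM per kb, Nr4a3 0.397 ± 0.297 and Nr4a2 0.207 ± 0.0555 (SD, n = 8), and the last 2 genes overlapped between libraries. Nr4a1 made up 98.0 ± 1.06% of the summed NR4A level per kb there, and 72.7 ± 8.31% in male AL cortex (SD, n = 8 and 7). These comparisons between genes were not tested.

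**Figure D1:**
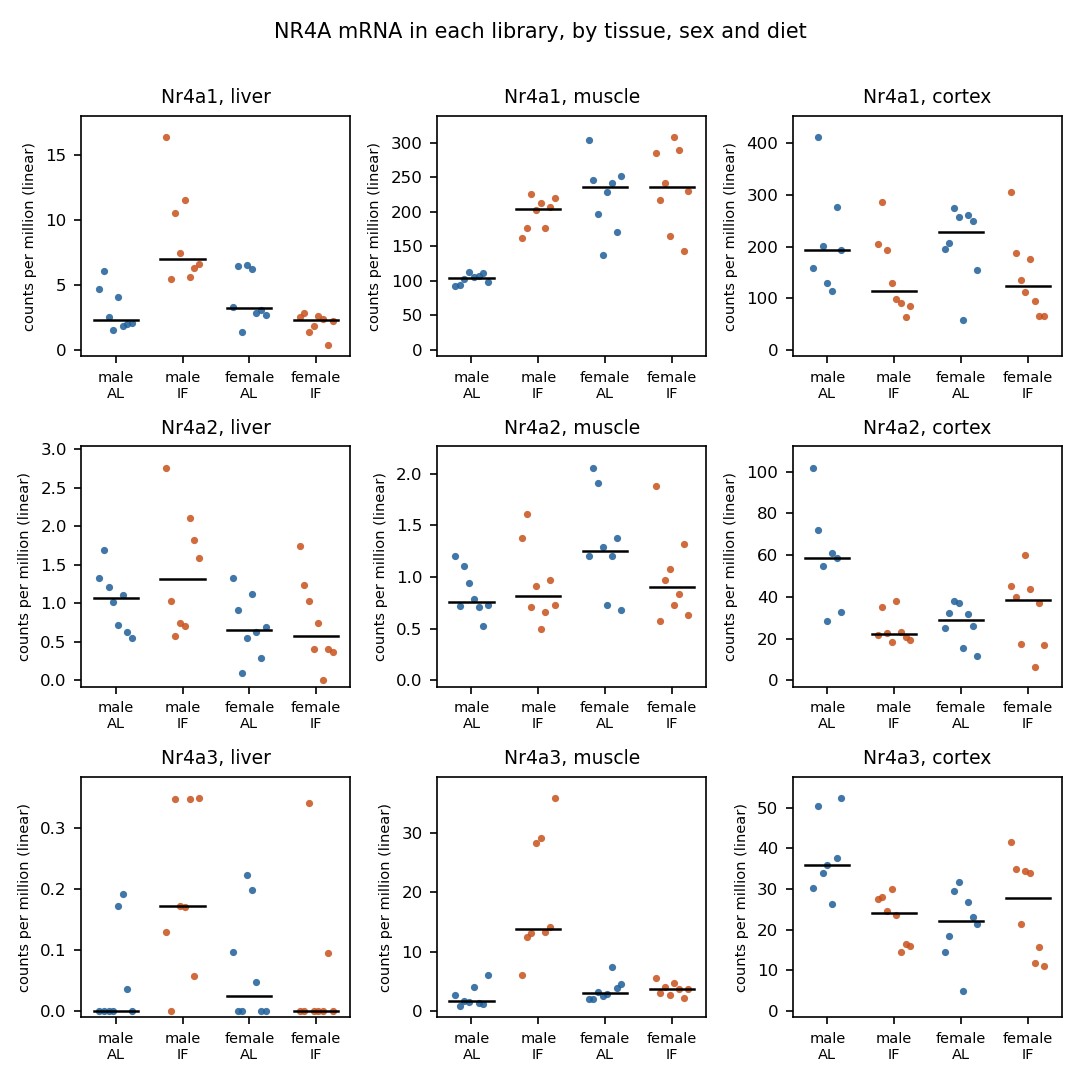
CPM (linear axes, different scales per panel) of the 3 genes in each library of liver, muscle and cortex, 1 point per library and a line at the group median, with blue for AL and orange for IF. In male muscle the IF libraries of Nr4a1 lie between 162 and 226 CPM and the AL libraries between 92.7 and 112.

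In muscle of male mice, Nr4a1 and Nr4a3 were higher in each IF library than in any AL library. Nr4a1 lay between 92.7 and 112 CPM in the 8 AL libraries, with a median of 104, and between 162 and 226 in the 8 IF libraries, with a median of 204. No AL library reached the lowest IF library. Its log2 fold change was 0.87 ± 0.07 (SE), with an adjusted p of 3.36e-08 from edgeR's quasi-likelihood test, and the difference over the 12870 ways of dividing these mice gave an exact permutation p of 0.000155, the smallest that these groups can give.

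Nr4a3 had between 0.856 and 5.99 CPM in AL muscle, with a median of 1.58, and between 6.03 and 35.9 in IF muscle, with a median of 13.8. The groups did not overlap, but the gap between them was narrow and the IF libraries were spread widely. The log2 fold change was 2.92 ± 0.46 (SE; adjusted p = 0.000474). Nr4a2 had between 0.528 and 1.2 CPM in AL muscle, with a median of 0.756, and between 0.501 and 1.61 in IF muscle, with a median of 0.820, so that the groups overlapped throughout (log2 fold change 0.08 ± 0.25, adjusted p = 0.867). Thus 2 of the 3 members were called higher in male muscle, where 11.5% of the 15025 genes tested were called higher, 11.6% lower and 23% in either direction. Separation of the 8 IF from the 8 AL libraries in the upward direction, as in these 2 members, was seen in 2.89% of those genes.

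Of the 4 adipocyte markers 3, Adipoq, Plin1 and Cidec, were called higher in IF muscle of male mice, beside 11.5% of all genes, and Lep was not called. Their summed level lay between 9.81 and 120 CPM in AL (49.8 ± 44.6, SD, n = 8) and between 35.8 and 613 in IF muscle (242 ± 196, SD, n = 8; exact p = 0.00544, adjusted 0.0392 over the 72 tests of marker sums), with Cidec the most abundant gene and none of the 4 at 0 counts in either group. The 3 genes listed as astrocyte markers summed to 17.1 ± 2.44 CPM in AL and 24.3 ± 4.02 in IF muscle (SD, n = 8 each, adjusted p of the exact test 0.0196). Aqp4 was the most abundant of them in muscle and Gfap in cortex, and the sum in muscle is not read as astrocytes. The 4 T cell markers summed to 3.10 ± 1.03 CPM in AL and 1.75 ± 0.695 in IF muscle (SD, n = 8 each, exact p = 0.0087, adjusted 0.0522). The part of these markers in the result was not tested. In bulk tissue, more cells of a type and more RNA per cell cannot be told apart.

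In muscle of female mice no member was called between the diets. Nr4a1 lay between 138 and 304 CPM in AL, with a median of 235, and between 144 and 308 in IF libraries, with a median of 235. Both groups reached and passed the range of the male IF libraries. Nr4a3 had between 1.97 and 7.32 CPM in AL (median 3.05) and between 2.17 and 5.63 in IF libraries (median 3.67), and Nr4a2 between 0.682 and 2.06 CPM in AL (median 1.25) and between 0.570 and 1.88 in IF libraries (median 0.906). The groups overlapped in each case. Log2 fold changes were 0.15 ± 0.19 for Nr4a1, 0.13 ± 0.26 for Nr4a3 and -0.31 ± 0.27 for Nr4a2 (SE; adjusted p = 0.803, 0.885 and 0.711). Among 15308 genes tested edgeR called 1, or 0.00653%, 1644 had an unadjusted p under 0.05, and DESeq2 called 82.

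The difference between the sexes was tested itself, by an interaction term for sex and diet in a fit of the 32 muscle libraries. The response of Nr4a1 was larger in male mice by 0.70 ± 0.21 on the log2 scale (adjusted p = 0.0198) and that of Nr4a3 by 2.77 ± 0.53 (adjusted p = 0.000718), while for Nr4a2 the difference was 0.37 ± 0.37 (adjusted p = 0.564). Of 16346 genes 14.2% passed this test. Age, strain and time on the diet of the female mice are not known here, so sex and the set of mice cannot be told apart. The sets also had different mean levels of clock genes in AL liver. Dbp stood at 8.88 ± 8.20 CPM in male and 235.5 ± 33.2 in female mice (SD, n = 8 each). Per1 stood at 5.59 ± 2.20 and 71.9 ± 32.6, and Arntl (Bmal1) at 20.1 ± 4.84 and 1.16 ± 0.485. The part of this in the sex by diet results was not tested.

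In liver of male mice, Nr4a1 was higher under IF. It had between 1.51 and 6.09 CPM in AL libraries, with a median of 2.31, and between 5.47 and 16.4 in IF libraries, with a median of 7.03. The groups overlapped at their edges, and 6 of the 8 IF libraries lay above the highest AL library. The log2 fold change was 1.40 ± 0.26 (SE; adjusted p = 0.000123). Nr4a2 had between 0.555 and 1.69 CPM in AL (median 1.06) and between 0.571 and 2.76 in IF libraries (median 1.31), and its log2 fold change was 0.36 ± 0.36 (SE; adjusted p = 0.427).

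Nr4a3 was close to the limit of detection in liver, and did not pass the expression filter. Its AL libraries ran from 0 to 0.192 CPM with a median of 0, and its IF libraries from 0 to 0.350 with a median of 0.172. The exact test of log2 CPM gave a difference of 1.26 (p = 0.0294, without adjustment), with 7 of 8 IF libraries above the AL median, at between 0 and 14 counts in a library. Over both sexes 16 liver libraries had no count of Nr4a3, which allows up to 3 counts, or between 0.067 and 0.112 CPM depending on the library, by counting error only. With 1 of the 2 members tested called, liver was set beside the 16204 genes tested there, of which 23.5% were called higher, 21.1% lower and 44.6% in either direction. A share of 1 in 2 members is near that background.

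Summed levels of markers of other cells in these livers are given beside the 23.5% of all genes that were called higher. The 5 erythrocyte markers summed to between 362 and 956 CPM in AL (577 ± 193, SD, n = 8) and between 667 and 6879 in IF libraries (2576 ± 2166, SD, n = 8; adjusted p of the exact test 0.0211), with Hba-a1 the most abundant and 3 of the 5 called higher. The 5 endothelial markers summed to between 62.7 and 89.3 CPM in AL and between 93.8 and 183 in IF libraries (adjusted p of the exact test 0.00372), with Robo4 the most abundant and 3 of 5 called higher. The 8 markers of macrophages, Kupffer cells and monocytes summed to 170 ± 34.2 CPM in AL and 248 ± 108 in IF libraries (SD, n = 8 each; exact p = 0.0152, adjusted 0.073), with Clec4f the most abundant and 2 of 8 called higher, near the share over all genes. None of these markers was at 0 in either group, and their part in the Nr4a1 result was not tested.

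In liver of female mice, Nr4a1 went the other way. AL libraries held between 1.34 and 6.52 CPM (median 3.20) and IF libraries between 0.348 and 2.84 (median 2.30), and all 8 IF libraries lay below the AL median, within a wide overlap. The log2 fold change was -0.97 ± 0.34 (SE), which did not pass adjustment (adjusted p = 0.785). Nr4a2 ran from 0.101 to 1.33 CPM in AL (median 0.656) and from 0 to 1.74 in IF libraries (median 0.580), and Nr4a3 from 0 to 0.223 in AL and from 0 to 0.342 in IF libraries. No gene was called in female liver by edgeR, that is 0% of 15938, with 919 at an unadjusted p under 0.05 and 4 called by DESeq2. The interaction of sex and diet gave 2.35 ± 0.44 for Nr4a1 (adjusted p = 0.000147) and 0.23 ± 0.68 for Nr4a2 (adjusted p = 0.851), and 23.7% of the 17658 genes passed it.

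In cortex of male mice, Nr4a2 and Nr4a3 were lower under IF. Nr4a2 had between 28.6 and 102 CPM in the 7 AL libraries, with a median of 58.4, and between 18.1 and 38.02 in the 8 IF libraries, with a median of 22.3. All 8 IF libraries lay below the AL median and 6 below the lowest AL library. Nr4a3 had between 26.3 and 52.3 CPM in AL (median 35.8) and between 14.5 and 30.1 in IF libraries (median 24), with all 8 IF libraries below the AL median and 5 below the lowest AL library. Log2 fold changes were -1.22 ± 0.26 for Nr4a2 and -0.74 ± 0.19 for Nr4a3 (SE; adjusted p = 0.0155 and 0.0284).

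Nr4a1 in male cortex ran from 114 to 412 CPM in AL (median 193) and from 64.0 to 286 in IF libraries (median 113). The groups overlapped widely, and the log2 fold change of -0.54 ± 0.36 did not pass (adjusted p = 0.402). Thus 2 of 3 members were called lower, where 3.43% of the 18462 genes tested were called lower, 3.79% higher and 7.21% in either direction. Both calls depended on the processing, with adjusted p from 0.000418 to 0.0825 for Nr4a2 and from 0.00076 to 0.369 for Nr4a3 over the alternatives. With the left-out library added, it was 0.0825 for Nr4a2 and 0.212 for Nr4a3. Without AL library 3, AL library 5 or IF library 7 the adjusted p of Nr4a3 was 0.0629, 0.0509 and 0.0503.

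Markers of the neurons that Nr4a2 is known to mark were read in the same libraries. Of 6, 2 were called lower, beside 3.43% of all genes, and their summed levels overlapped at the edges of the groups. The 6 markers of claustrum and layer 6b neurons summed to between 214 and 370 CPM in AL (276 ± 50.5, SD, n = 7) and between 192 and 237 in IF cortex of male mice (212 ± 13.3, SD, n = 8; adjusted p of the exact test 0.0112), with Synpr the most abundant. Synpr and Ntng2 were called lower, at log2 fold changes of -0.65 ± 0.14 and -0.44 ± 0.13 (SE; adjusted p = 0.0141 and 0.0443), and Gnb4, Nxph4, Ccn2 and Cplx3 were not called. The 3 oligodendrocyte markers summed to 4425 ± 757 CPM in AL (SD, n = 7) and 6344 ± 1060 in IF cortex (SD, n = 8; adjusted p of the exact test 0.0196), with Mbp the most abundant and 2 of the 3, Mbp and Mog, called higher, beside 3.79% of all genes. The 4 T cell markers summed to 9.458 ± 9.365 CPM in AL (SD, n = 7) and 21.28 ± 7.786 in IF cortex (SD, n = 8). The exact test gave p = 0.0137, adjusted 0.0705, and 1 of the 4 was tested by edgeR and not called. No marker of these lists was at 0, and their part in the Nr4a2 and Nr4a3 results was not tested.

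In cortex of female mice no member was called. Nr4a1 ran from 58.5 to 275 CPM in AL (median 229) and from 65.9 to 306 in IF libraries (median 123). Nr4a2 ran from 11.8 to 37.9 CPM in AL (median 28.9) and from 6.15 to 59.9 in IF libraries (median 38.6). Nr4a3 ran from 4.76 to 31.6 CPM in AL (median 22.1) and from 10.96 to 41.6 in IF libraries (median 27.6). The diets overlapped for each gene, with log2 fold changes of -0.56 ± 0.34, 0.29 ± 0.38 and 0.26 ± 0.36 (SE; adjusted p = 0.527, 0.772 and 0.793). In this fit 0.0109% of 18403 genes were called, which are 2 genes, while 2069 had an unadjusted p under 0.05 and DESeq2 called 61. The interaction was -1.52 ± 0.47 for Nr4a2 (adjusted p = 0.0935) and -0.996 ± 0.42 for Nr4a3 (adjusted p = 0.242), and 0.02 ± 0.50 for Nr4a1 (adjusted p = 0.99), so a difference between the sexes was not shown in cortex, where 2.03% of 19547 genes passed. For Nr4a2 DESeq2 gave an adjusted p of 0.0425, and the alternatives ran from there to 0.258.

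**Figure D2:**
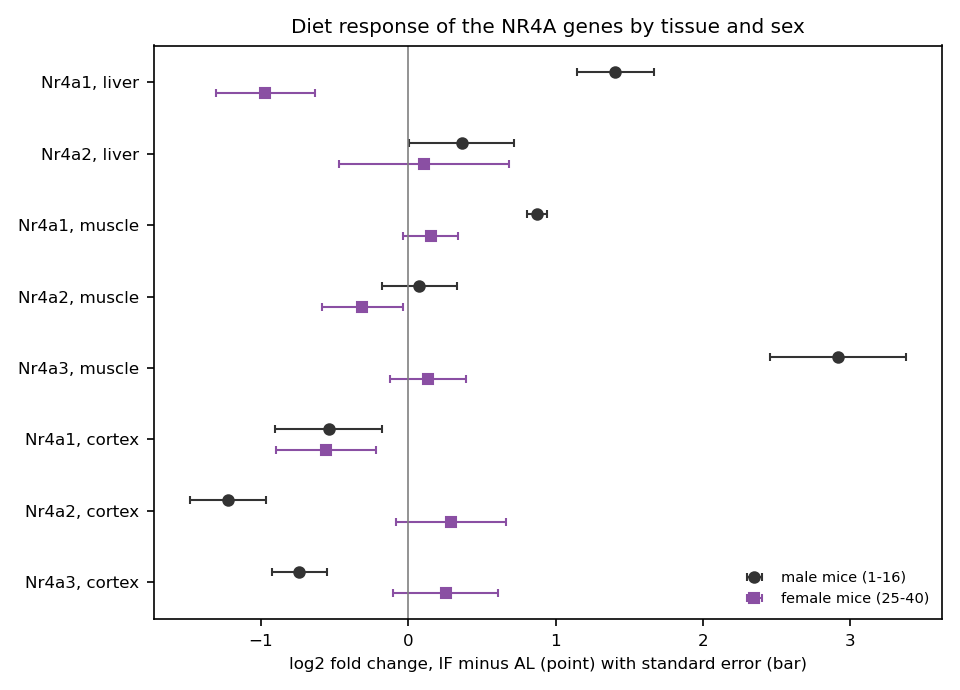
Log2 fold changes (IF minus AL) from the edgeR fits, with bars for the standard error, for male mice (black circles, 1 to 16) and female mice (purple squares, 25 to 40). The largest is Nr4a3 in male muscle, at 2.92, and the lowest Nr4a2 in male cortex, at -1.22.

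Whether the diet response differed between tissues was tested within mice, with libraries of the same number taken as the same mouse. The test used the difference of log2 CPM between 2 tissues of a mouse and exact permutation of the diets, in 18 comparisons with p adjusted over them. In male mice the response of Nr4a3 was lower in cortex than in muscle by a log2 difference of -3.83 (exact p = 0.000155, adjusted 0.0028). The responses of Nr4a1 and Nr4a2 were also lower in cortex than in muscle, by -1.46 and -1.28 (exact p = 0.00404 for both, adjusted 0.0145). The responses of all 3 were lower in cortex than in liver, by -2.09, -1.42 and -1.97 (adjusted p of the exact tests 0.0112, 0.0145 and 0.038). With the left-out library added, Nr4a2 no longer passed against muscle (-0.995, adjusted p = 0.0892) or liver (-1.15, adjusted p = 0.0607), and at a prior count of 0.5 in place of 2 Nr4a3 did not pass in cortex against liver (-2.79, adjusted p = 0.0547). The response of Nr4a1 in muscle and liver differed by -0.51 (exact p = 0.129, adjusted 0.232). For Nr4a3 muscle minus liver was 1.70 (adjusted p of the exact test 0.0388). Nr4a3 did not pass the expression filter in liver. Its differences against liver rest on a level near 0 and are not read as a difference of response. The value of 1.70 became 0.82 at a prior count of 0.5 (adjusted p = 0.56). With the left-out library added it was 1.69 (adjusted p = 0.0536), and it passed in neither case. In female mice 1 of 9 comparisons passed, Nr4a1 in muscle against liver, at 1.12 (exact p = 0.0124, adjusted 0.0373).

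Genes that share the regulation of NR4A were read from lists, whose counts stand beside the share of all genes called in either direction in the same male tissue (44.6% in liver, 23% in muscle and 7.21% in cortex). The cell markers given above for male muscle, liver and cortex were measured in the same libraries, and their part in these counts was not tested. Of 30 other immediate early genes, 7 were called higher and 1 lower in male muscle among the 27 tested, beside 23% of all genes called, with a median log2 fold change of 0.24 beside 0.01 over all genes. They included Klf10, from 9.03 ± 1.93 to 21.1 ± 1.89 CPM, and Zfp36, which destabilises inflammatory mRNAs, from 9.47 ± 1.39 to 24.9 ± 9.35 (SD, n = 8 each). In male liver 10 of 25 were called higher and 3 lower, beside 23.5% and 21.1% of all genes, with a median of 0.42 beside 0.06, among them Gadd45b (log2 fold change 3.44) and Maff (2.63) above and Zfp36 (-1.09) below. In male cortex 1 of 30 was called higher and 2 lower, beside 7.21% of all genes called, with a median of -0.33 beside 0.00. DESeq2 called 7 of the 30, beside 2187 of all genes where edgeR called 1332. By edgeR 11 had an unadjusted p under 0.05, beside 23.8% of all genes. The number of genes that DESeq2 tested is not given here, so its counts in these lists stand without a share. Fosl2, a subunit of the AP-1 factor, went from 50.4 ± 12.8 (SD, n = 7) to 31.9 ± 6.13 CPM (SD, n = 8), and Fos, which did not pass, from 49.3 ± 27.8 to 25.9 ± 15.5.

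The list of cAMP and CREB targets had 6 of 9 genes called higher in male muscle and none lower, beside 11.5% and 11.6% of all genes, with a median log2 fold change of 0.70 beside 0.01. Pck1, which encodes the enzyme that commits carbon to gluconeogenesis and which adipocytes make too, went from 4.85 ± 5.71 to 113 ± 112 CPM, in libraries where the adipocyte markers summed to 49.8 ± 44.6 and 242 ± 196, and Pde4d, which breaks down cAMP, from 15.1 ± 2.42 to 35.9 ± 9.03 (SD, n = 8 each). In male liver 5 of 11 were called higher and none lower, beside 23.5% of all genes called higher and 21.1% lower there. The share called in either direction was near the 44.6% over all genes, with a median of 0.32 beside 0.06. Pck1 rose from 505 ± 178 to 1461 ± 267 CPM, Sik1 from 9.20 ± 4.59 to 23.6 ± 5.87 and Per1 from 5.59 ± 2.20 to 139 ± 49.5 (SD, n = 8 each). In male cortex 1 of 8, Nfil3, was called, beside 7.21% of all genes, and it was lower (log2 fold change -0.67).

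Of 16 receptors, CREB coactivators and factors upstream of NR4A, 4 of 16 were called higher and 3 lower in male liver, near the 44.6% of all genes called. In male muscle 2 of 14 were higher and 4 lower, beside 23% of all genes called, and in male cortex none of 15 by edgeR, beside 7.21%, where 3 had an unadjusted p under 0.05 and DESeq2 called 1. Adrb3, the beta-3 adrenergic receptor that adipocytes make, was among the genes called higher in muscle, at 1.51 ± 2.10 CPM in AL and 15.2 ± 17.7 in IF libraries (SD, n = 8 each). In male liver it was called lower, from 54.1 ± 18.6 to 20.4 ± 11.3 CPM (SD, n = 8 each), at a log2 fold change of -1.53. The retinoid X receptors, partners with which Nr4a1 and Nr4a2 bind DNA as dimers, differed in their direction. In male liver Rxra and Rxrb were called higher and Rxrg lower (log2 fold changes 0.98, 0.41 and -1.32), and in male muscle all 3 were called lower (-0.34, -0.26 and -0.33). Rxra went from 171 ± 20.8 to 360 ± 48.6 CPM in male liver and from 238 ± 12.2 to 197 ± 14.1 in male muscle (SD, n = 8 each). In male cortex none of the 3 was called.

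Metabolic genes that NR4A receptors are known to regulate had 8 of 17 called higher and 2 lower in male muscle, beside 11.5% and 11.6% of all genes, with a median log2 fold change of 0.20 beside 0.01. Pdk4, which restrains glucose oxidation, rose from 207 ± 68.3 to 1302 ± 332 CPM, Ucp3 from 69.3 ± 18.6 to 324 ± 73.9 and Fbp2 from 46.1 ± 8.14 to 95.8 ± 13.7 (SD, n = 8 each). In male liver 7 of 15 were called higher and 1 lower, beside 23.5% and 21.1% of all genes (median 0.35 beside 0.06), with Lpin1 at a log2 fold change of 3.23. In male cortex 2 of 15 were called higher and 1 lower, beside 7.21% of all genes called.

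Of the dopamine neuron genes that Nr4a2 is known to regulate, 5 were tested in male cortex, with a median log2 fold change of -0.42 beside 0.00 over all genes. Of these 1, Ddc, was called, and it was higher (0.57), where 7.21% of all genes were called. Th (-1.22), Ret (-0.51) and Slc18a2 (-0.42) had values below 0 and Aldh1a1 one above (0.23), and none of the 4 passed (adjusted p = 0.272, 0.0582, 0.0506 and 0.356). By DESeq2, which called 2187 of all genes in male cortex where edgeR called 1332, 3 of the 5 were called, Ddc, Ret and Slc18a2. By edgeR 3 of the 5 had an unadjusted p under 0.05, beside 23.8% of all genes. In male liver 1 of 4 was called, Ddc (-1.53), beside 44.6% of all genes, and in male muscle 1 of 6, Pitx3 (-0.89), beside 23%, with medians of -0.61 and -0.36.

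Clock genes, which also respond to feeding time, were read in the same male mice. As the IF mice could feed only in the light, the fast and the hours of feeding cannot be told apart. Of the 7 genes 5 were called higher and 2 lower in liver (44.6% of all genes called), 3 higher and 2 lower in muscle (23%), and 2 higher and 1 lower in cortex (7.21%), with medians of 1.34, 0.20 and 0.23. Bmal1 (Arntl in the table) was lower in all 3 tissues, at log2 fold changes of -1.91, -1.0 and -0.48. In the female mice edgeR called none of the genes in these 7 lists. Of those tested, 6 of 77 in liver, 16 of 83 in muscle and 14 of 81 in cortex had an unadjusted p under 0.05, beside 5.77%, 10.7% and 11.2% of all genes, and DESeq2 called 0, 2 and 2.

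Promoters of the 3 genes were read from RefSeq, because Nr4a1, Nr4a2 and Nr4a3 are known targets of CREB. The RefSeq table (GRCm38.p6) held all 3, each 250 bases before and 50 after a start, and each sequence matched GRCm39 once on its chromosome. The Nr4a1 promoter lies at chr15:101164477-101164776 on the plus strand, inside the annotated span of the gene. That of Nr4a2 lies at chr2:57013966-57014265 on the minus strand and that of Nr4a3 at chr4:48045055-48045354 on the plus strand. Capitals mark the 5-base core of the cAMP response element, TGACG or its reverse complement CGTCA.
Nr4a1: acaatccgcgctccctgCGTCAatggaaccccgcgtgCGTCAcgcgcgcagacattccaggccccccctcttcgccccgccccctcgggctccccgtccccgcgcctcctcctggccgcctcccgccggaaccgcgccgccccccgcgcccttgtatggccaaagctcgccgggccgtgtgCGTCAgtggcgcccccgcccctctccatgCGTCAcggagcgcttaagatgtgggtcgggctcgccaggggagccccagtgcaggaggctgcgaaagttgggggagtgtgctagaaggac
Nr4a2: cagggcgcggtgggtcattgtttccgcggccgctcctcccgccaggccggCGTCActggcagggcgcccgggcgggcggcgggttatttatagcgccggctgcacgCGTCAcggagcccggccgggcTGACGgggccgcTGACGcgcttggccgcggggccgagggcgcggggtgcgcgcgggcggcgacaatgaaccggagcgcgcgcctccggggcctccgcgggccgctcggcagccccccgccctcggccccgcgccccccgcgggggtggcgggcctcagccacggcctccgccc
Nr4a3: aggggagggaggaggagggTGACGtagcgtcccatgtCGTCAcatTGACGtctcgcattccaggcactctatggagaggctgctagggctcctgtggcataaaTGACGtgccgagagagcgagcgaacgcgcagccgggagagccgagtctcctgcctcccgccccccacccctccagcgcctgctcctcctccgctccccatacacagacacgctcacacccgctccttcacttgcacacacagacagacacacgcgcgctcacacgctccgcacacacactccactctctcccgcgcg
Each promoter holds 4 such cores. Among the 32851 RefSeq promoters of the same length 20.8% hold at least 1 and 0.231% at least 4. The full palindrome TGACGTCA, which contains the core on both strands, is in none of the 3 and in 1.79% of all promoters. The NR4A binding site AAAGGTCA, read on both strands, is in none of the 3 and in 1.51% of all. The letters of a TATA box, TATAAA on either strand, are in 1 of the 3, Nr4a2, and in 13.6% of all. In Nr4a2 they lie on the opposite strand, as TTTATA from base 87 of the window, which holds 250 bases before the start. The windows are rich in G and C (72.3%, 81.7% and 64.7%).

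The NR4A genes were then compared with each other across single mice, after the mean of each sex and diet group was taken off log2 CPM. In cortex, Nr4a1 and Nr4a3 rose and fell together over 31 libraries (Pearson's r = 0.807, Spearman's rho = 0.756, permutation p = 1e-05 for both, the smallest that 100000 resamples can give, adjusted 9e-05 over 9 pairs). Without the 2 libraries farthest from the median of Nr4a1, r was 0.726 (permutation p = 3e-05). Within the groups r was 0.686 in male AL, 0.778 in male IF, 0.946 in female AL and 0.832 in female IF libraries.

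Nr4a2 had a lower r with each other member over all cortex libraries, and this difference between correlations was not tested. Its r with Nr4a3 was 0.4997 (permutation p = 0.00999, adjusted 0.045) and rho 0.494 (permutation p = 0.012, adjusted 0.054). Without the 2 farthest libraries r was 0.492 (permutation p = 0.00737). Within the groups r was -0.383 in male AL, 0.271 in male IF, 0.576 in female AL and 0.786 in female IF libraries. With Nr4a1 r was 0.401 and rho 0.404 (permutation p = 0.0334 and 0.032, adjusted 0.1 and 0.0961). In muscle Nr4a1 and Nr4a3 had r = 0.269 and rho = 0.293 over 32 libraries (permutation p = 0.0709 and 0.0932), with 0.628 in male IF and 0.917 in female IF libraries but -0.301 in male AL and -0.018 in female AL libraries. No pair in muscle or liver passed adjustment. Between tissues of a mouse the deviations of a member had r from -0.351 to 0.350, and none of the 9 correlations passed (lowest adjusted p 0.428).

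**Figure D3:**
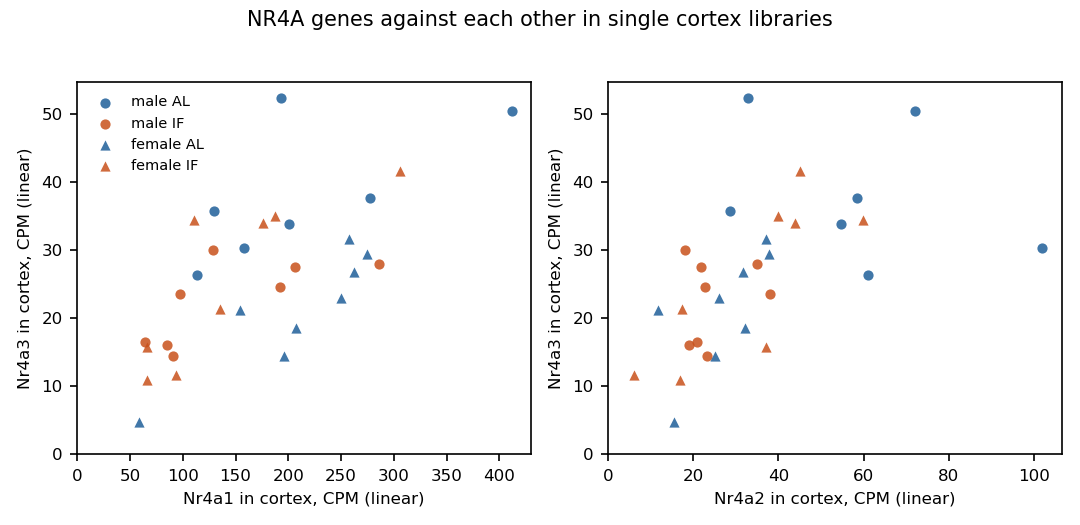
Nr4a3 against Nr4a1 (left) and against Nr4a2 (right) in the 31 cortex libraries, in CPM on linear axes, with circles for male and triangles for female mice and blue for AL and orange for IF. Nr4a3 rises with Nr4a1, with r = 0.807 on log2 CPM after group means are taken off.

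The genes most like each member were ranked by r over the same libraries, as a description. In cortex those nearest to Nr4a1 among 15402 genes were Arc (r = 0.964, rho = 0.986), the noncoding RNA 1700016P03Rik (0.960 and 0.963), Fos (0.949 and 0.954), Dusp1 (0.944 and 0.940) and Egr2 (0.931 and 0.943). Arc, Fos and Egr2 are activity-induced genes of neurons, and 16 of the 30 listed immediate early genes were among the 50 nearest to Nr4a1, with Nr4a3 at place 29. For Nr4a3 there were 8 of 30 among its 50 nearest. Nr4a3 was nearest to Fosl2 (0.926), Egr2 (0.882), Fosb (0.880), Irf2bp2 (0.873) and Sik1 (0.871). Nr4a2 had a different set, Nr2f2 (0.821), Rnf215 (0.796), Kit (0.779), B3gat2 (0.775) and Itga4 (0.766), with none of the immediate early genes among its 50 nearest. The median r of the 30 listed genes in cortex was still 0.273 with Nr4a2, beside -0.006 over all genes. It was 0.773 with Nr4a1, beside 0.001, and 0.596 with Nr4a3, beside -0.013.

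In muscle the genes nearest to Nr4a1 among 12484 were Dab2ip (r = 0.779), Cuedc1 (0.775), Tiparp (0.764), Alg2 (0.728) and Dysf (0.720). Their rho was 0.504, 0.451, 0.612, 0.594 and 0.716. Without group means taken off, their r was 0.467, 0.437, 0.830, 0.786 and -0.133. None of the 25 immediate early genes measured was among the 50 nearest of any member there. Nr4a3 was nearest to Prr3 (0.642), Nedd4l (0.604) and Zfp423 (0.604), and Nr4a2 to Slc2a1 (0.741), Cby1 (0.698), Snhg18 (0.685), Vwa1 (0.659) and Foxd3 (0.641). In liver Nr4a1 was nearest to Fbh1 (0.681), Plekha1 (0.667), Zfp90 (0.662), Vps37c (0.656) and Kif7 (0.652) among 13422 genes, with 1 of 24 immediate early genes among its 50 nearest. Without the 2 farthest libraries these 5 values of r were 0.555, 0.503, 0.425, 0.483 and 0.550. The 24 immediate early genes had a median r of 0.256 with Nr4a1 in liver, beside 0.009 over all genes. Nr4a2 and Nr4a3 were too low in liver to be ranked.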

How the data were processed

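Poly-A RNA was made into directional libraries and sequenced. The deposited values are raw read counts per gene, which the authors made with HISAT2 on GRCm39 (mm39 in the submitters' notes) and featureCounts, without normalization. The gene length column is the authors' own and was used only for CPM per kb. Libraries were grouped by tissue, sex and diet as labelled, 8 per group, and male AL cortex library 1 was omitted, which leaves 7. The sample sheet gave the fast and the months on the diet of the male mice to the female mice too, without a source, and those entries were not used. CPM were computed from the counts and the library totals. Members and lists were chosen with earlier results of these data known.

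Each tissue and sex was fitted alone with edgeR 4.0.16 in R 4.3.3 (TMM, robust quasi-likelihood test) over the genes that passed its expression filter (minimum count 10, minimum total 15), which had 2 of the 3 members in liver and all 3 in muscle and cortex. Adjusted p-values are Benjamini-Hochberg over all genes tested, except over the 18 differences in diet response between tissues, the 9 pairs of members, the 9 correlations between tissues and the 72 marker sums, with 0.05 as threshold, and all tests are two-sided. Log2 CPM used a prior count of 2. Genes named from a list were the up to 4 called genes with the largest change at a mean of at least 1 CPM, other list members named with their values were chosen after those were seen, and the genes named by likeness were the 5 with the highest r, or the first 3 for Nr4a3 in muscle, where a later gene is not reported here. CPM per kb, the count among the 50 nearest genes and the promoter motifs were chosen with the data at hand. Alternatives were RLE size factors, DESeq2 1.42.0, other filters, a replicate block, 1 fit over the 3 tissues, library totals alone for levels between tissues (added after the data were seen), single libraries left out, AL mouse 2 and IF mouse 10 left out, and the omitted library added. Libraries of a group differed by more than sampling noise, so none was a duplicate. Of 72 exact tests of summed marker levels (log2 CPM plus 0.1) 16 had p under 0.05 and 10 passed adjustment over them. Passing sums not named above were those of the neuron, astrocyte and claustrum lists in male liver and of the sex genes in male muscle. They are not read as cell types. The marker tests, the TATA box and the correlations between tissues were also chosen with the data at hand. Errors are SD or SE over mice, since counting error at these depths leaves out the variation between animals. Plots were made in Python 3.11.15 (matplotlib 3.10.9).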

Additional observations from a re-analysis of the deposited data

Results flagged for a closer look

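In several cases the diet response differed between the sexes, by the interaction of sex and diet. The difference, male minus female on the log2 scale, was 2.35 for Nr4a1 in liver, 0.70 for Nr4a1 in muscle and 2.77 for Nr4a3 in muscle.

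Differences in response between tissues, within mice matched by number, were flagged as well. In male mice the cortex response minus that of liver was -2.09 for Nr4a1, -1.42 for Nr4a2 and -1.97 for Nr4a3, and the cortex response minus that of muscle was -1.46, -1.28 and -3.83. The Nr4a3 values against liver rest on a level near 0 and are not read as a difference of response. For Nr4a3 in male mice muscle minus liver was 1.70, or 0.82 at a prior count of 0.5, against a liver level near 0. The muscle response minus that of liver was 1.12 for Nr4a1 in female mice. The values of 1.70 and -1.97 for Nr4a3 against liver did not pass at a prior count of 0.5, and those of 1.70, -1.42 and -1.28 did not pass with the omitted library added.

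Of the 36 combinations of 3 genes and 12 groups of libraries, which share libraries, 1 held a value far from the rest. Chance gives such a value in about 1 of 20 groups of continuous values. It was Nr4a3 in liver of female IF mouse 35, at 0.342 CPM against 0.095 in 1 other library and 0 in 6, so that rate does not apply to it. The omitted cortex library, labelled male, held 213 CPM of Xist.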

How the results depend on the processing

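The male muscle calls of Nr4a1 and Nr4a3 and the male liver call of Nr4a1 held under all alternatives run, with log2 fold changes over single libraries left out of 0.84 to 0.90, 2.73 to 3.29 and 1.2 to 1.58. The male cortex calls did not. For Nr4a2 the replicate block gave -1.16 (adjusted p = 0.0609) and the added library -1.09. For Nr4a3 the block gave -0.80 (adjusted p = 0.0602), no filter -0.74, the added library -0.61 and 1 fit over the 3 tissues -0.76. Leaving out single libraries gave -1.34 to -1.03 for Nr4a2, with all 15 called, and -0.81 to -0.65 for Nr4a3, with 12 of 15 called. The cause was not tested.

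Nr4a2 changed sign without being called in female liver, at -0.0807 with the replicate block, -0.13 by the exact test and -0.21 to 0.30 over single libraries left out, and in male muscle, at -0.10 without AL mouse 2 and IF mouse 10 and -0.0711 to 0.176 over single libraries. Nr4a1 in female liver passed only without adjustment, at -0.96 by DESeq2 and -0.97 by the exact permutation test (p = 0.0263). The interaction in cortex was -0.26 for Nr4a1 without AL mouse 2 and IF mouse 10 and -0.0613 with the replicate block, and -1.51 for Nr4a2 by DESeq2. Of the tissue differences, a prior count of 0.5 gave 0.82 and -2.79 for Nr4a3 in male muscle and cortex against liver, and 0.0262 for Nr4a2 in female muscle against liver. The added library gave 1.69 for Nr4a3 in muscle against liver, and -1.15 and -0.995 for Nr4a2 in cortex against liver and muscle, none of which then passed. Without group means taken off, r was 0.0471 for Nr4a1 and Nr4a2 in muscle and 0.431 in cortex, where the pair then passed (adjusted p = 0.0421, against 0.1). Spearman's rho of Nr4a2 and Nr4a3 in cortex, with group means taken off, was 0.494 (adjusted p = 0.054). For levels of Nr4a1 in AL mice, library totals alone gave 0.99 in male and -0.11 in female cortex minus muscle, a choice added after the data were seen.

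In male cortex the count of called genes went from 1332 to 382 with the replicate block, 2187 with DESeq2, 498 without AL mouse 2 and IF mouse 10 and 294 with the added library. At an unadjusted p DESeq2 gave 5085 there and 5926 in male muscle, and 1307, 2002 and 2510 in female liver, muscle and cortex, against 4, 82 and 61 with adjustment. No filter gave 5 in female muscle and the block 0 in female cortex. AL and IF mice with the same replicate number are different animals, and the correlation of their deviations ran from -0.262 to 0.459, and 6 of 47 AL libraries correlated best with the IF library of their own number, so the numbers do not pair them.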
